A study of Mus musculus with 2 samples.

Results

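The collagen genes were examined in 2 libraries of methylated liver DNA, 1 Pemt-/- and 1 Pemt+/+, called the 2 mice below. They were taken as the genes on autosomes whose symbol in the longer region lists reads Col, a number, the letter a and a number. This rule gave 25 of the 14073 autosomal genes in these lists, of which 24 had a region in Pemt-/- and all 25 in Pemt+/+. Of these genes, 8 encode chains of fibrillar collagens, 5 encode chains of basement membrane collagens, and 12 encode other collagens.

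Collagens are triple helical proteins of the extracellular matrix. Fibrillar collagens such as type I form the tensile fibres of scar tissue, which in the fibrotic liver are laid down largely by activated hepatic stellate cells, whereas type IV collagen forms the sheet-like network of basement membranes. In the liver, DNA methylation at CpG dinucleotides is usually low at the start of genes with CpG-rich promoters and high within transcribed gene bodies.

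Both mice were fed high fat-high sucrose (HFHS) chow, from 5 weeks of age according to the sample records, which date the livers to 25 weeks of age. The Methods describe male mice and place the livers of the enrichment step at the first weeks of feeding. The records speak of bisulphite conversion before enrichment, whereas the Methods do not. A commercial kit captured the methylated DNA through a protein that binds methylated CpG, and a region is a place where the sequenced reads (tags) piled up. Pemt-/- mice lack phosphatidylethanolamine N-methyltransferase, an enzyme that makes phosphatidylcholine, and Pemt+/+ mice carry both normal copies of its gene. The records name neither the deleted part of the gene nor the strain. With 1 library per genotype, each comparison is between these 2 libraries, has no replicate check and carries no test. Region lists hold no expression values, so they checked neither the genotype nor the tissue.

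The longer lists held 97063 regions with 1582080 tags in Pemt-/- and 131279 regions with 2847831 tags in Pemt+/+. Library totals were not analysed here, so tags were read against the typical ratio of all gene-assigned pairs of regions and not as levels. The collagen regions had a median of 12 tags in Pemt-/- and 16 in Pemt+/+, next to medians of 13 and 17 for the regions of all genes. All region positions are from the build mm9. Of 42 autosomal collagen genes in the RefSeq table of GRCm38, 15 had no row in the lists, among them Col3a1 of type III collagen and Col4a2, and 2 stood under older symbols. Since only 80.6% of the 2312 autosomal protein-coding genes over 100 kb had a row, a missing row does not show that a gene lacked regions.

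No collagen gene had a region over the 5' end of its transcript in either mouse, compared with 2.67% of all 14073 listed genes that had one. Among regions of all genes, 0.475% in Pemt-/- and 0.507% in Pemt+/+ lay over a 5' end, and 0 of 171 and 0 of 224 collagen regions allow shares of up to 2.2% and 1.69% (upper Wilson limits), so fewer than usual could not be shown with this number of regions. Promoter sequences are therefore shown for Col1a2 (a chain of type I collagen), Col4a1 and Col4a4 (chains of type IV collagen). That of Col15a1 (the chain of type XV collagen) is shown as well, all with each CG in capitals. They give the CpG content around 5' ends over which no region was called. Each run covers 250 bases before and 50 bases after the start of the RefSeq transcript, reads 5' to 3' along the gene and is from GRCm38.p6, whose positions are not those of mm9. These genes were chosen after the region values were seen.
Col1a2 promoter (GRCm38.p6, chr6:4505368-4505667, plus strand): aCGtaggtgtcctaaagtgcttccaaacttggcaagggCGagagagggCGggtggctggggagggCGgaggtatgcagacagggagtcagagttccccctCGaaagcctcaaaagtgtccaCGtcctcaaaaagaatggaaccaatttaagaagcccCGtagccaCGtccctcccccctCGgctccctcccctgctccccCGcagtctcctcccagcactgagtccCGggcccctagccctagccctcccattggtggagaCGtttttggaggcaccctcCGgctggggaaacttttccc
Col4a1 promoter (GRCm38.p6, chr8:11312777-11313076, minus strand): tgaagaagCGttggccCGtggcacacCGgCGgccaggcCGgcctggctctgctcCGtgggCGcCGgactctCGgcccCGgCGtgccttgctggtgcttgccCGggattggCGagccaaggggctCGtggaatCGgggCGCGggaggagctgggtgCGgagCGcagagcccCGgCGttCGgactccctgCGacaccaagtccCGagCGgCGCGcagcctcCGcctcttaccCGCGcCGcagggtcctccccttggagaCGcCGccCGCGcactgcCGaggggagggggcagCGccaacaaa
Col4a4 promoter (GRCm38.p6, chr1:82586800-82587099, minus strand): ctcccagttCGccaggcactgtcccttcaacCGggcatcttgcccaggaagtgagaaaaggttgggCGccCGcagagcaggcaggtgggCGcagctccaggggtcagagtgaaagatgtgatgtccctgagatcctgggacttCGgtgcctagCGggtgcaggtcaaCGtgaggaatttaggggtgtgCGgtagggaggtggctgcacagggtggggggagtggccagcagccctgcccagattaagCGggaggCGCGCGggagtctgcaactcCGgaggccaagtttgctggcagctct
Col15a1 promoter (GRCm38.p6, chr4:47207762-47208061, plus strand): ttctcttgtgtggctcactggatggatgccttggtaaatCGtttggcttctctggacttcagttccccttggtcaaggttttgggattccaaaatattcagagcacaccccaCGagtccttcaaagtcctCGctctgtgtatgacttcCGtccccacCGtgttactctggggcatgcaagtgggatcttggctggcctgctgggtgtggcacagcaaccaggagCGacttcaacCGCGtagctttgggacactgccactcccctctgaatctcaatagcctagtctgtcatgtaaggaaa
The motif searched was CG, which reads the same on both strands. It occurred 13 times in the Col1a2 promoter, 37 times in that of Col4a1, 14 times in that of Col4a4 and 8 times in that of Col15a1. The Col4a1 promoter held more CG than 94.2% of a set of 31396 autosomal promoters of 300 bases. This set did not cover every autosome. Promoters were given for 20 of the 25 collagen genes, in 22 windows, with a median of 15 CG (range 0 to 37). The median over the whole set was 7 (interquartile range 3 to 21). At the low end, the Col28a1 promoter held 0 CG. The CG count is a description of the reference sequence and not of methylation in these mice.

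The start site could be placed in mm9 for 12 collagen genes, from the distances of regions listed upstream of it. Such regions were listed up to 10 kb away, so by selection each of these genes had one in at least 1 mouse. Other collagen genes, Col1a2, Col4a4 and Col15a1 included, were not placed. In the 12 placed genes, the nearest region lay farther from the start site than the promoter windows reach. Among them, the nearest region was at a median of 5190 bp (range 793 to 9880 bp, 11 genes) in Pemt-/- and 3407 bp (range 796 to 13837 bp, 12 genes) in Pemt+/+. The closest was upstream of Col4a3, which encodes a chain of the type IV collagen of the glomerular basement membrane. It held 10 tags at 793 bp in Pemt-/- (chromosome 1, 82582364 to 82582702) and 9 tags at 796 bp in Pemt+/+. The same region lies inside Col4a4, which is transcribed away from Col4a3 on the opposite strand. Upstream of Col2a1, the type II collagen of cartilage, a region held 12 tags at 2001 bp in Pemt-/- and 33 tags at 1981 bp in Pemt+/+. Upstream of Col4a1, a region of 9 tags at 1917 bp was listed in Pemt+/+ only.

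Collagen regions lay mostly in gene bodies. Of the collagen regions, 147 of 171 (86.0%, Wilson 95% confidence interval 80.0 to 90.4%) in Pemt-/- and 196 of 224 (87.5%, 82.5 to 91.2%) in Pemt+/+ were inside or overlapped a transcript, and the rest were within 10 kb of one. The same share over all genes was 81.8% and 81.6%. These intervals, like all intervals below, cover counting error only. Collagen genes are long, with a median of 121 kb in GRCm38 compared with 22.2 kb over the listed genes that matched the RefSeq table. Among genes of at least 100 kb, the inside share was 89.5% and 91.4% for the 16 collagen genes and 92.5% and 92.3% for all 1671 genes. A single region overlapped a 3' end, that of Col9a3 in Pemt-/-.

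Longer collagen genes had more regions. A collagen gene had a median of 5 regions (range 0 to 25) in Pemt-/- and 6 (range 1 to 38) in Pemt+/+, compared with 2 and 3 over all genes. Spearman's rho between gene length and number of regions across the 25 genes was 0.796 in Pemt-/- and 0.809 in Pemt+/+, with genes of 1 library as points, and across all genes it was 0.635 and 0.651. Per 100 kb, the 16 collagen genes of at least 100 kb had a median of 5.0 and 5.56 regions, and all genes of that length had 4.77 and 6.53. Of the 25 genes, 14 had more regions in Pemt+/+, 9 had equal numbers and 2, Col1a1 and Col15a1, had more in Pemt-/-. The whole Pemt+/+ list was also the longer one, with 131279 regions compared with 97063. The same counts were not made over all listed genes, so they are not read as a trait of collagen genes.

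**Figure D1:**
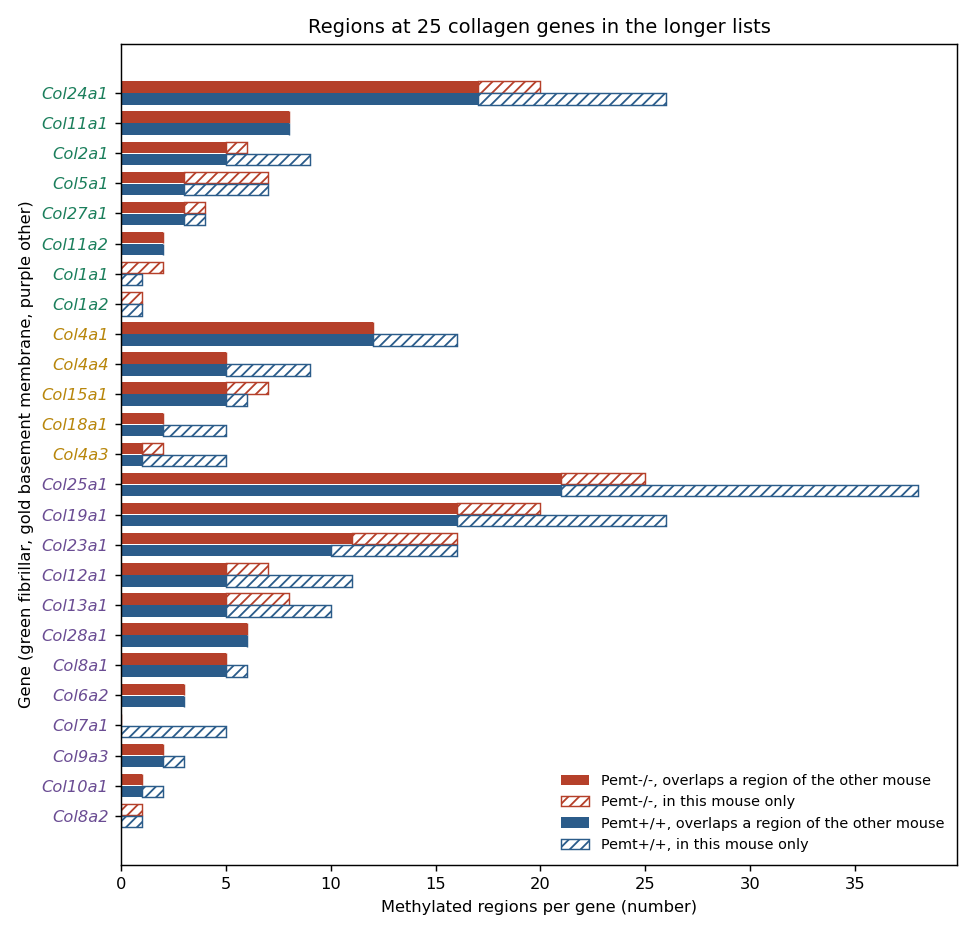
Number of methylated regions at each of the 25 collagen genes (x axis) in Pemt-/- (red) and Pemt+/+ (blue), with the regions that overlap no region of the other mouse hatched. Col25a1 had the most regions, 25 and 38, and Col7a1 had 0 and 5.

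A few genes held most of the regions. Col25a1, Col19a1, Col24a1, Col23a1 and Col4a1 accounted for 54.1% of the gene-region links in Pemt-/- and 54.0% in Pemt+/+. Col25a1, a transmembrane collagen first described in amyloid plaques, had 25 and 38 regions over 420 kb. Col19a1 (type XIX, a collagen associated with fibril surfaces and basement membrane zones) had 20 and 26. Col24a1, a fibrillar collagen of developing bone, also had 20 and 26. Col23a1, another transmembrane collagen, had 16 regions in each mouse, and Col4a1 had 12 and 16. At 114 kb, Col4a1 was shorter than the median collagen gene. Its 10.5 and 14.0 regions per 100 kb were the most among the 16 collagen genes of at least 100 kb. The upper quartiles over all genes of that length were 7.53 and 10.1. The largest collagen region of either mouse was a Pemt+/+ region of 77 tags inside Col23a1 (chromosome 11, 51332700 to 51334052). It overlapped a pair of Pemt-/- regions of 20 and 8 tags.

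The question of the design is which methylated regions differ between the Pemt-/- and the Pemt+/+ liver. The share of collagen regions found in one mouse only was close to that of all genes. In Pemt-/-, 34 of 171 regions (19.9%, 14.6 to 26.5%) overlapped no Pemt+/+ region, compared with 17.7% over all genes. In Pemt+/+, 88 of 224 regions (39.3%, 33.1 to 45.8%) overlapped no Pemt-/- region, compared with 39.6%. With lists of equal length these shares were 31.0% and 28.2%, next to 29.6% and 28.8% for all genes. As over all genes, unshared regions held fewer tags than shared ones. They had a median of 9 tags in Pemt-/- and 13 in Pemt+/+ (10 and 13 over all genes), and regions found in both mice had 13 and 20 (14 and 22). In Pemt+/+ the unshared regions reached 38 tags at Col13a1, 32 in Col12a1 and 27 in Col25a1. The nearest Pemt-/- regions to these were 144, 329 and 5635 bp away and held 34, 23 and 23 tags. The Col13a1 region lay 9322 bp downstream of the gene. Of the unshared regions, 23 of 34 in Pemt-/- and 25 of 88 in Pemt+/+ held at most 10 tags, where the smallest called region held 8 and 9. Col11a1, Col11a2, Col6a2 and Col28a1 had no unshared region in either mouse.

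By role, 12 of 50 fibrillar regions (24.0%, 14.3 to 37.4%) in Pemt-/- and 20 of 58 (34.5%, 23.6 to 47.3%) in Pemt+/+ were unshared. The basement membrane genes had 3 of 27 (11.1%, 3.85 to 28.1%) and 15 of 39 (38.5%, 24.9 to 54.1%). The other collagens had 19 of 94 (20.2%, 13.3 to 29.4%) and 53 of 127 (41.7%, 33.5 to 50.4%). All 6 intervals include the share over all genes.

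The genes of type I collagen, the main fibrillar collagen of liver scar, had few regions and shared none between the mice. Col1a1 had 2 regions in Pemt-/-, of 8 and 11 tags, and 1 of 14 tags in Pemt+/+. The Pemt+/+ region inside Col1a1 (chromosome 11, 94811421 to 94811975) and the 11-tag Pemt-/- region (94812044 to 94812588) were separated by 68 bp. Col1a2 had 1 region of 9 tags in each mouse, both inside the gene on chromosome 6, at 4489518 to 4489856 in Pemt-/- and 4479792 to 4480147 in Pemt+/+, 9370 bp apart. With 8 to 14 tags, these regions were near the smallest that were called. Neither gene has paired tags, so no difference in methylation between the mice could be measured at type I collagen.

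Among the remaining fibrillar genes, Col5a1 and Col11a1 had the highest Pemt-/- shares of tags in paired regions. A pair means 1 region of each mouse that overlap each other and no other region. There were 134 such pairs in 21 collagen genes, with 1978 tags in Pemt-/- and 3155 in Pemt+/+. The Pemt-/- share was 38.5% (37.2 to 39.9%), compared with 40.01% (39.9 to 40.1%) over all 37433 pairs, and the ratio of tags (Pemt-/- over Pemt+/+) had a median of 0.635 compared with 0.688. Fibrillar genes had 577 and 791 tags in 37 pairs, a share of 42.2% (39.6 to 44.8%) and a median ratio of 0.8. The interval of their share includes that over all pairs.

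Col5a1, a chain of the type V collagen that regulates the diameter of type I fibrils, had 86 and 96 paired tags, a Pemt-/- share of 47.3% (40.1 to 54.5%). Its pairs were 10 and 10, 43 and 53, and 33 and 33 tags, and all 3 lay above the median ratio of all pairs. The gene had 4 unshared regions in each mouse besides, of 8 to 10 tags in Pemt-/- and 10 to 14 tags in Pemt+/+. Col11a1, a chain of type XI collagen of cartilage fibrils, had 89 and 104 paired tags in 7 pairs, a share of 46.1% (39.2 to 53.2%). Its pair ratios ran from 0.542 to 1.33. Col24a1 had 291 and 388 paired tags in 17 pairs, a share of 42.9% (39.2 to 46.6%), with pair ratios from 0.308 to 1.21. Col2a1 had the lowest share of the fibrillar genes with at least 100 paired tags, 58 and 117 tags in 5 pairs or 33.1% (26.6 to 40.4%), an interval that includes the share over all pairs. Its pair ratios ran from 0.364 to 0.818, with 1 of the 5 pairs above the median ratio of all pairs. Col27a1 had 36 and 62 paired tags and Col11a2 17 and 24, both under the 100 paired tags set for a gene to be read by its share.

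**Figure D2:**
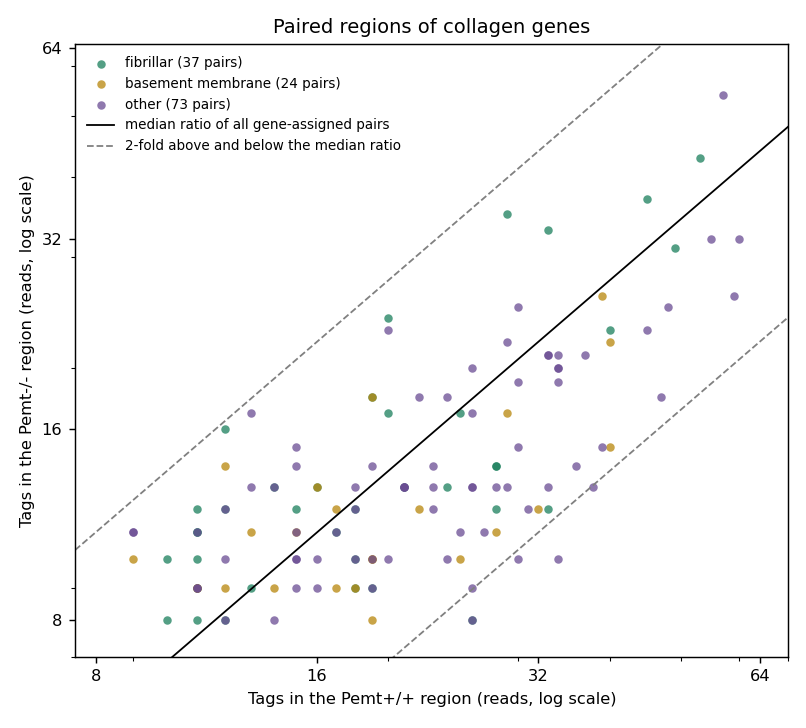
Tags in the 134 paired collagen regions, Pemt+/+ on the x axis and Pemt-/- on the y axis, both on log scales, coloured by role, with the median ratio of all pairs (0.688) as a line and 2-fold limits dashed. No pair lies above the upper limit and 5 lie below the lower one.

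Basement membrane genes had 296 and 496 tags in 24 pairs, a Pemt-/- share of 37.4% (34.1 to 40.8%) and a median ratio of 0.615. Col4a1, which encodes a chain of the type IV network of all basement membranes, spans 11198423 to 11312826 on the minus strand of chromosome 8. All 12 of its Pemt-/- regions paired with a Pemt+/+ region, and 4 further regions of 9, 14, 16 and 22 tags were in Pemt+/+ only. The 12 pairs held 156 and 251 tags, a share of 38.3% (33.7 to 43.1%). The largest pair, at 11243575 to 11243913 in Pemt-/-, held 26 and 39 tags. Downstream of its start site, the first region inside the gene lay at 17.2 kb in Pemt-/- and 17.3 kb in Pemt+/+.

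**Figure D3:**
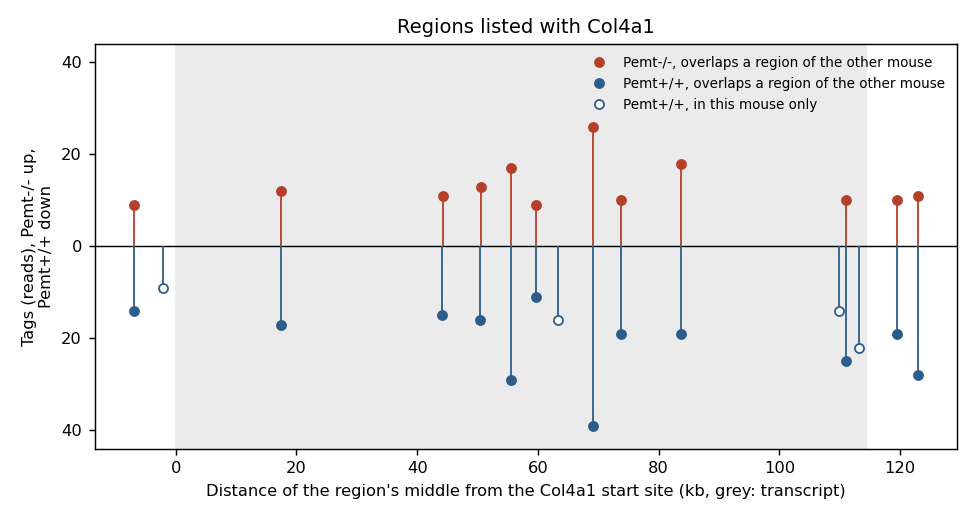
Tags of each region listed with Col4a1 by the distance of its middle from the start site in kb, Pemt-/- upward and Pemt+/+ downward, with the transcript shaded and regions of one mouse only as open circles. The 12 Pemt-/- regions each have a counterpart in Pemt+/+, and the 4 open circles are all in Pemt+/+.

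Col4a3 and Col4a4 lie head to head on chromosome 1 and shared 1 region in Pemt-/- and 2 in Pemt+/+. Col4a3 had 2 regions of 8 and 10 tags in Pemt-/-, and 5 of 9 to 16 tags in Pemt+/+. Of these, 1 pair was shared, and an 8-tag Pemt-/- region stood 125 bp from a 14-tag Pemt+/+ region without overlap. Col4a4 had 5 regions in Pemt-/-, all of which paired, and 9 in Pemt+/+. Its paired tags were 53 and 73, a share of 42.1% (33.8 to 50.8%). Over the 3 type IV genes, 1 of 18 Pemt-/- regions (5.56%, 0.988 to 25.8%) and 11 of 28 Pemt+/+ regions (39.3%, 23.6 to 57.6%) were unshared, and both intervals include the shares over all genes, 17.7% and 39.6%.

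Col15a1 and Col18a1 encode the collagens that release restin and endostatin, fragments that restrain vessel growth. Col15a1 had 7 regions in Pemt-/- and 6 in Pemt+/+. Its 5 pairs held 22 and 40, 12 and 32, 15 and 40, 11 and 13, and 9 and 18 tags. Of these pairs, 4 lay below the median ratio of all pairs and 1 (11 and 13 tags, 0.846) above it. The sum was 69 and 143 tags, a Pemt-/- share of 32.5% (26.6 to 39.1%), and 3.69% of genes had a lower ratio. Col18a1 had 2 regions of 9 tags each in Pemt-/- and 5 of 12 to 26 tags in Pemt+/+, and its 2 pairs held 18 and 29 tags.

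The other collagens had 1105 and 1868 tags in 73 pairs, a Pemt-/- share of 37.2% (35.4 to 38.9%) and a median ratio of 0.609. The interval of this share lies below the 40.01% over all pairs. Col8a1, a short-chain collagen of vessel walls, had the lowest share of the collagen genes read by share. Its 5 pairs held 12 and 31, 13 and 26, 13 and 21, 9 and 19, and 10 and 34 tags. Each of them lay below the median ratio of all pairs. Together they held 57 and 131 tags, a share of 30.3% (24.2 to 37.2%), and 1.39% of genes had a lower ratio. Among the other collagens, the next lowest was Col23a1 with 134 and 254 tags in 9 pairs, 34.5% (30.0 to 39.4%). Col19a1 had 260 and 484 tags in 16 pairs, 34.9% (31.6 to 38.4%), and 2 of these pairs lay above the median ratio. Col25a1 had 302 and 477 tags in 21 pairs, 38.8% (35.4 to 42.2%). Toward the upper end, Col12a1, a collagen that binds to the surface of type I fibrils, had 76 and 103 tags in 5 pairs, 42.5% (35.5 to 49.8%). Col13a1 had 98 and 138, Col28a1 98 and 156, and Col6a2, a chain of the beaded filaments of type VI, 47 and 78 paired tags, with shares of 41.5%, 38.6% and 37.6%.

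Col7a1, the collagen of the anchoring fibrils of skin, was the only collagen gene with no region in one mouse. Of all 14073 listed genes, 9.15% had no region in Pemt-/- and 2.22% none in Pemt+/+. It had 5 regions of 9 to 13 tags, 54 in all, in Pemt+/+ and none in Pemt-/-. One of them lay 1411 bp inside the gene (chromosome 9, 108857201 to 108857483) and another 8823 bp upstream, and the Pemt-/- region nearest to any of the 5 was 10227 bp away. Col8a2 had 1 region in each mouse, of 9 tags downstream and 13 tags upstream, which did not overlap. Col9a3 had 22 and 36 paired tags, and Col10a1, the collagen of hypertrophic cartilage, had 11 and 11.

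Of the 15 collagen genes with at least 100 paired tags, none lay more than 1.5-fold above the median gene, compared with 1.26% of the 5310 genes with as many tags. Only Col8a1 lay more than 1.5-fold below it, compared with 1.62% of these genes. At 0.655 times the ratio of the median gene, Col8a1 was just past the limit. With an overlap of at least 50% of each region required, or with lists of equal length, no collagen gene did. The median gene had a ratio of 0.664, a share of 39.9%, and the middle 50% of genes had shares of 37.4 to 42.5%. The Wilson interval lay above the median gene for 1 collagen gene, Col5a1, compared with 5.03% of the 5310 genes with at least 100 paired tags. It lay below for 4, Col8a1, Col15a1, Col23a1 and Col19a1, compared with 4.61% of these genes. For the other 10 the interval included the median gene. An interval narrows as tags increase, and the 5310 genes were not matched to the collagen genes in tags. The numbers of intervals above and below are therefore not directly comparable with these shares.

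**Figure D4:**
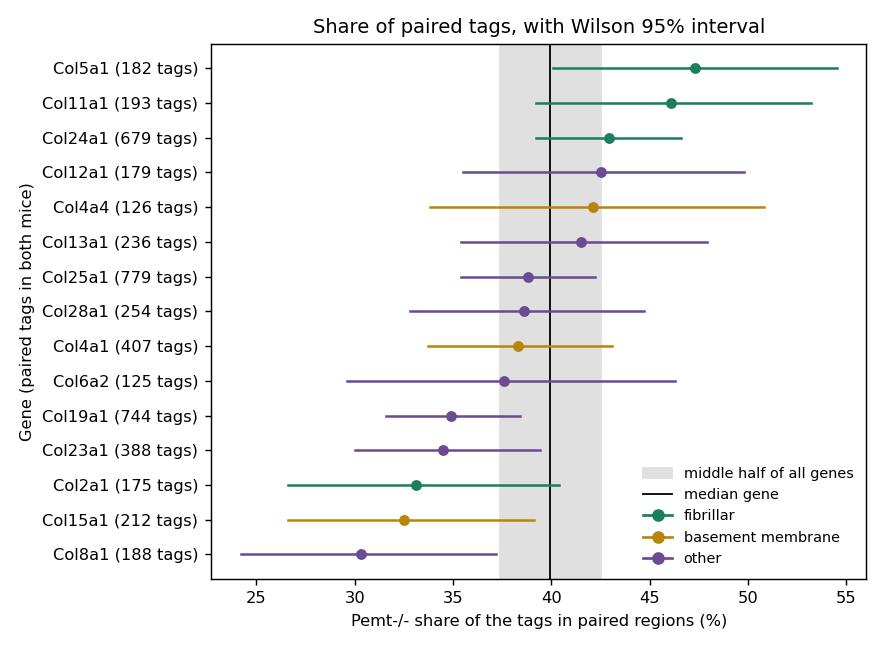
Pemt-/- share of the tags in paired regions in percent (x axis) with its Wilson 95% interval for the 15 collagen genes with at least 100 paired tags, the median gene as a line (39.9%) and the middle 50% of genes shaded. The shares run from 30.3% in Col8a1 to 47.3% in Col5a1.

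Pair by pair, no collagen pair was more than 2-fold above the median ratio, compared with 2.04% of all pairs. More than 2-fold below it were 5 of 134, compared with 2.04%. These 5 held 10 and 34 tags in Col8a1, 8 and 26 in Col13a1, 8 and 26 in Col24a1, 10 and 30 in Col25a1 and 13 and 38 in Col23a1. All lay inside their genes. The Col8a1 pair is at 57712989 to 57713275 on chromosome 16 in Pemt-/-, and 0.663% of all pairs had a lower ratio. Among the collagen pairs of at least 40 tags, the highest ratios were 35 to 29 tags (1.21) and 24 to 20 tags (1.2) in Col24a1 and 23 to 20 tags (1.15) in Col12a1. In 10 of the 134 pairs Pemt-/- had more tags than Pemt+/+, 7.46% compared with 10.8% over all pairs.

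A shorter list was deposited for each mouse, and what it compared is not stated. In Pemt-/-, 3 of 171 collagen regions overlapped its regions, 1.75% compared with 2.22% over all genes. They were regions of 9 tags in Col19a1, 9 tags in Col1a2 and 18 tags in Col24a1, each with a false discovery rate of 100% in the shorter list. In Pemt+/+, 12 of 224 did so, 5.36% compared with 4.72%. They were in Col23a1 (3 regions), Col19a1 and Col4a1 (2 each), and Col8a1, Col9a3, Col25a1 and Col27a1 (1 each). The last was a region of 10 tags listed with both Col4a3 and Col4a4 (chromosome 1, 82573760 to 82574062), found in Pemt+/+ only. The false discovery rates of these 12 regions were 31.17 to 35.6%. Of the 77-tag region of Col23a1, the rate was 35.6%.

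The genes that make, process, bind and degrade collagen were taken from a list of 48, of which 31 had a region. The rest had no row in the longer lists, which does not show that they lacked regions. In Pemt-/- 24 of the 136 regions of the 31 genes (17.6%) were unshared, and in Pemt+/+ 77 of 189 (40.7%). Over all genes the shares were 17.7% and 39.6%. In 109 pairs the 31 genes held 1711 and 2597 tags, a Pemt-/- share of 39.7% (38.3 to 41.2%). None of the 15 with at least 100 paired tags lay more than 1.5-fold above or below the median gene, next to 1.26% and 1.62% of the 5310 genes with as many tags. By role, the share was 41.2% (37.7 to 44.7%) for modification and folding, 39.1% (36.8 to 41.4%) for processing and cross-linking, 38.9% (36.3 to 41.6%) for receptors and 41.9% (37.7 to 46.3%) for degradation. At the ends of the range over these 15 genes, and named after their values were seen, Timp3, an inhibitor of matrix proteases, had 92 and 95 paired tags (49.2%), and Pcolce2, an enhancer of procollagen processing, had 64 and 131 (32.8%).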

How the data were processed

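Pemt-/- and Pemt+/+ liver DNA, 1 library each, was enriched for methylated DNA with a kit and sequenced on a Genome Analyzer IIx by the authors. The submitters' processing notes name CASAVA version 1.8.2, Bowtie and the build mm9. The role of each tool, the caller's settings, the control and the handling of duplicate reads are not given in the sources used here, and the control and duplicates change tag numbers. The authors deposited 2 region lists per mouse, with tags as raw counts of reads, fold enrichment as a ratio over background, the caller's p-value as a score (-log10 p, multiplied by 10), and its false discovery rate in percent. Positions and distances are in bp in the deposited lists.

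From these, overlaps (at least 1 bp), one-to-one pairs, shares and Wilson 95% intervals were computed with scipy version 1.17.1, numpy version 2.4.6 and pandas version 2.3.3 in Python version 3.11.15, and plotted with matplotlib version 3.10.9. Each region was used once per gene and once in totals over genes, however many transcripts it was listed with. Regions listed with several genes, such as those shared by Col4a3 and Col4a4, counted for each gene. Gene symbols are those of the lists. Gene lengths, names and promoter sequences came from RefSeq tables of GRCm38, and 86.3% of listed genes matched a length. Tags per library are the sums over regions, since library totals were not analysed here. The calculations were tested on simulated data. No test was run, since each genotype has 1 library.

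The members and lists were chosen with earlier results of these data known. Genes were named by a rule: those of types I, III, IV, XV and XVIII, the 5 with most regions and any with none in one mouse, the 4 highest and 4 lowest shares among genes with at least 100 paired tags, each with a region in a shorter list or over a 5' end, and the genes of the 3 highest and 3 lowest ratios among pairs of at least 40 tags. Other collagen genes are given by their counts. Alternatives were lists of equal size, the higher-scoring 50% of each list, an overlap covering 50% or more of each region, regions inside or overlapping transcripts only, clusters of overlapping regions as pairs, a minimum of 50 paired tags, a 2-fold limit for genes, and the ratio of summed tags as the centre.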

Additional observations from a re-analysis of the deposited data

How the results depend on the processing

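Of 47 values recomputed under the alternatives, 36 moved by less than their interval or within 1.5 times the count, and 11 did not. The share of collagen regions in one mouse only depended on list length. With the upper 50% of each list by score it was 13.8% in Pemt-/- (22.8% over all genes) and 46.2% in Pemt+/+ (43.2%). With lists of equal size it was 31.0% (29.6%) and 28.2% (28.8%), since the Pemt+/+ list was then shorter. Pairs more than 2-fold below the median ratio fell from 5 to 1 with the upper 50%, and to 3 both with an overlap of at least 50% and with lists of equal size, where 1 pair was above. Col8a1, the 1 gene more than 1.5-fold below the median gene, was no longer so, leaving 0, with an overlap of at least 50%, with lists of equal size and with a 2-fold limit. Apart from the shorter list and the wider limit, the cause was not tested. The Pemt-/- share of paired collagen tags was 37.7 to 39.0% under all alternatives, next to 39.3 to 40.1% over all genes. No paired analysis was possible because there is 1 library for each genotype. Regions of 8 to 10 tags are near the smallest that were called, and whether regions of one mouse only were just under the threshold in the other was not tested.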

Other observations

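Collagen genes outside the rule also had regions. Col26a1, listed as Emid2, had 12 regions in Pemt-/- and 17 in Pemt+/+, and its 10 pairs held 179 and 255 tags, a Pemt-/- share of 41.2% (36.7 to 45.9%). Col6a6, listed as E330026B02Rik, had 17 and 24 regions, and its 13 pairs held 198 and 303 tags, a share of 39.5% (35.3 to 43.9%). Col4a6, on the X chromosome, had 2 regions in each mouse, of which 1 pair overlapped, with 15 tags in Pemt-/- and 32 in Pemt+/+. The unpaired ones held 9 tags each.

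Beyond the start site of Col4a1, in a stretch of 136 kb (chromosome 8, 11312827 to 11449309 in mm9), 11 regions were listed for Pemt-/-, 9 of them with no transcript, and 21 for Pemt+/+, 18 of them with no transcript. The stretch was set to the length of Col4a2, the neighbour of Col4a1 in the RefSeq table, which has no row in the lists. Among those with no transcript, the regions without a counterpart in the other list numbered 1 of 9 for Pemt-/- and 10 of 18 for Pemt+/+, where 17.7% and 39.6% of all gene-assigned regions had none. The 8 pairs held 133 and 181 tags, a Pemt-/- share of 42.4% (37.0 to 47.9%).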
